A study of Mus musculus with 2 samples.

Results

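Newborn migrating projection neurons were chosen from single-cell RNA sequencing (scRNA-seq) of mouse embryonic dorsal telencephalon by their own counts of a few genes. A cell was a member when it held at least 3 unique molecular identifiers (UMIs, each marking 1 captured RNA molecule) of *Neurod1*, at least 2 of *Unc5d* and at most 1 of *Eomes*, with at most 2 UMIs of *Top2a*, *Mki67* and *Cenpf* together, at most 1 of *Gad1*, *Gad2* and *Dlx6os1* together and at most 1 of *Trp73*, *Lhx1* and *Lhx5* together. The rule found 678 members among 12936 cells kept. Replicate 1 contributed 315 of 5453 cells, which is 5.78% with a 95% Wilson interval of 5.19 to 6.43%, and replicate 3 contributed 363 of 7483 cells, which is 4.85% with an interval of 4.39 to 5.36%. These intervals cover counting error only. Both libraries came from WT embryos at E14.5, described as EomesMllt3 controls from an *Eomes*-Cre line, in which the *Eomes* locus drives Cre, on a C57BL/6J background, with no treatment. Whether the controls carried Cre or another engineered allele, and whether embryos were pooled, is not given in the sources used here. By the labels the tissue was brain hemispheres, while the methods speak of dorsal telencephalon. The labels give the libraries as separate samples and state nothing further on how they are related, so p-values measure the spread between these 2 samples only, which may be technical. The study used such data to predict signals from interneurons to cortical progenitors at this stage.

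Projection neurons of the cortex are the glutamatergic cells whose axons leave their own area. They arise from radial glia, the stem cells that line the ventricle, either directly or through intermediate progenitor cells (IPCs), which carry the T-box factor *Eomes*. A neuron that has just left its last division turns on the bHLH factor *Neurod1* for a short time. It first takes a multipolar shape in the intermediate zone, and then becomes bipolar and climbs along radial glial fibres into the cortical plate. *Unc5d*, a netrin receptor that also binds FLRT proteins, is known from multipolar cells, and *Neurod6* is a neuronal factor that most members held as well.

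The members were set beside 2 groups of cells that were taken to stand before and after them in this lineage. IPCs were cells with at least 3 *Eomes* UMIs and the same limits on cycle, GABAergic and Cajal-Retzius genes, and there were 612 in replicate 1 and 913 in replicate 3. The rule for IPCs set no limit on *Neurod1* or *Unc5d*, so young neurons that still hold *Eomes* may be among them. Later neurons were cells with at least 3 *Neurod6* UMIs, at most 1 *Neurod1* and at most 1 *Eomes* UMI and the same limits, and there were 1876 and 2247. Presence of *Neurod6* does not set these cells apart from the members, most of which held it too. *Neurod6* had a UMI in 93.8% and 97.0% of the members with 2 to 5 *Unc5d* UMIs and in 100% of those with 81 or more. The rules part these groups by their limits on *Neurod1*. The rule for later neurons does not fix birth date or subtype. In the comparison with later neurons, maturation and subtype therefore cannot be told apart. Cells with at least 2 *Sox2* and at least 2 *Hes5* UMIs but no *Neurod1* or *Eomes* UMI, 163 and 254 of them, served as a reference for radial glia. UMIs were summed per group and replicate, and levels are given as CPM, the UMIs of a gene scaled to a total of 1000000 per sum, with replicate 1 first and replicate 3 second. Since the groups were cut by genes measured in the same cells, genes that move with those genes differ between groups in part by this choice, and the 13 genes of the rules for members, IPCs and later neurons were left out of all tests.

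The 2 libraries held 6163 and 8870 barcodes with 64182006 and 93295807 UMIs. The members had a median of 11625 and 11411 UMIs per cell, near the 10757 and 10962 of the IPCs and the 12058 and 11520 of the later neurons, so depth differed little between the groups compared. The libraries shared 23 barcodes, of which 0 were members. Most markers of other cell types were low in the members. The rule itself capped GABAergic and Cajal-Retzius genes, so low levels of such markers follow in part from it. The 9 GABAergic markers summed to 26.2 and 14.8 CPM, the 11 vascular and meningeal markers to 36.8 and 22.7 CPM with *Kcnj8* at 0, and the 5 microglia markers to 2.96 and 4.19 CPM. The 5 Cajal-Retzius markers summed to 77.1 and 61.1 CPM, against 99.2 and 72.5 CPM in the IPCs and 30.4 and 47.2 CPM in the later neurons. Most of the members' sum came from *Reln* at 71.9 and 45.2 CPM. The other 4 were low, with *Ndnf* at 0.247 and 0.22 CPM. The 5 erythroid markers summed to 104.2 CPM in replicate 1 and 918 CPM in replicate 3, with 280 and 443 CPM in the IPCs. No erythroid gene passed the test in either comparison, and the part of free globin RNA in other results was not tested. The 10 genes of the response to dissociation summed to 126 and 134 CPM in the members, 152 and 138 in the IPCs and 108 and 121 in the later neurons. Of the 8 of them that were tested, *Dusp1* was higher (0.92 ± 0.15, adjusted p = 0.00835, log2 fold change ± SE by the test described below) and *Egr1* (-1.28 ± 0.36, adjusted p = 0.0485) and *Hspa1b* (-0.92 ± 0.23, adjusted p = 0.0354) were lower in the members than in the IPCs. Against later neurons the 8 did not pass, and 2 were higher with the replicate block. The calls of *Egr1* and *Hspa1b* were lost under 6 and 4 of the alternatives. The part of dissociation in other results was not tested.

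The rule's own genes describe how wide the group is, and carry no test. *Neurod1* had a median of 4 UMIs per member in both replicates, and 35.2% and 38.0% of the members stood at the lower limit of 3. *Eomes* was at 0 in 79.7% and 76.9% of the members. *Unc5d* ranged from 2 to 275 UMIs with a median of 48 in replicate 1, and from 2 to 182 with a median of 34 in replicate 3. Summed over the members, *Unc5d* stood at 4483 and 3269 CPM, in the IPCs at 2883 and 2091 CPM and in the later neurons at 866 and 800.3 CPM. The 111 and 138 members with 3 *Neurod1* UMIs held *Slc17a6* at 192 and 263 CPM, and the 135 and 203 cells left out for having 2 held it at 165 and 225 CPM. At the limit on *Eomes*, *Neurog2* stood at 28.0 and 38.9 CPM in members with 1 *Eomes* UMI and at 80.8 and 84.4 CPM in the 21 and 63 cells left out for having 2.

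The other markers named for these cells, *Slc17a6* and *Sema3c*, were not used by the rule. *Slc17a6* encodes the vesicular glutamate transporter VGLUT2 and stood at 251 and 249.6 CPM in the members and 1.15 and 2.77 CPM in the radial glia. After each cell was thinned to 5000 UMIs, which left out 3 and 10 shallower members and 0 and 2 radial glia, it was detected in 59.6% of the members of replicate 1 (Wilson interval 54.1 to 64.9%) and 64.3% of those of replicate 3 (59.2 to 69.1%). In the radial glia, which should lack it, the shares were 1.23% and 0.397%. Before thinning the members' shares were 77.1% and 81.3%. *Sema3c*, a secreted semaphorin, was detected in 57.4% (51.8 to 62.7%) and 53.5% (48.3 to 58.7%) of the thinned members and in 7.98% and 4.37% of the thinned radial glia, whose median depth before thinning was 14972 and 15079 UMIs. Over the group as a whole, both markers outside the rule were detected in most members. By the edgeR test described below, *Slc17a6* did not differ past the threshold between members and IPCs (0.12 ± 0.11, adjusted p = 0.48). *Sema3c* was higher in the members than in the IPCs (1.81 ± 0.12, adjusted p = 0.000582). *Neurod1* and *Unc5d*, the other markers of the label, were fixed by the rule and bear nothing on it.

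A minority of the members, those with the fewest *Unc5d* UMIs, had little *Slc17a6*. The bins of *Unc5d* UMIs used here were chosen after the values were seen and are a description. The 32 and 33 members with 2 to 5 *Unc5d* UMIs (10.2% and 9.09% of the members) held *Slc17a6* at 30.4 and 51.8 CPM, against 366 and 368 CPM in the 82 and 43 members with 81 or more. *Slc17a6* rose from each bin to the next in both replicates. *Sstr2*, a somatostatin receptor, was also lowest in the lowest bin, at 48.7 and 32.4 CPM against 170.3 and 162 CPM in the highest. *Meis2*, a homeobox factor, stood at 899 and 929.8 CPM in the lowest bin and 2918 and 2473 CPM in the highest.

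Other genes were high in the lowest bin. *Zbtb20*, a zinc finger factor known from the hippocampal primordium and from late-born neurons, stood at 2778 and 1454 CPM in the members with 2 to 5 *Unc5d* UMIs and at 708 and 486 CPM in those with 81 or more. *Zfpm2*, a zinc finger cofactor of GATA factors also known from corticothalamic neurons, stood at 1686 and 1259.8 CPM against 205 and 116 CPM. *Slit3*, a secreted ligand of Robo receptors, stood at 1287 and 395 CPM against 0 and 1.67 CPM, and 53.1% and 48.5% of the cells of the lowest bin had a UMI of it. *Sema3c* did not follow this split, at 333 and 235 CPM in the lowest and 349.9 and 316 CPM in the highest bin. In replicate 3 the 54 members with 6 to 15 *Unc5d* UMIs held *Slit3* at 390, *Zfpm2* at 1009 and *Zbtb20* at 1088 CPM. The 27 such members of replicate 1 held them at 237, 204 and 889 CPM. *Slc17a6* stood at 97.3 and 117 CPM in this bin. Each comparison below was also run with only members of at least 6 *Unc5d* UMIs, of which there were 283 and 330. That cut keeps the bin of 6 to 15, so it does not remove all cells high in *Slit3*, *Zfpm2* and *Zbtb20*.

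**Figure D1:**
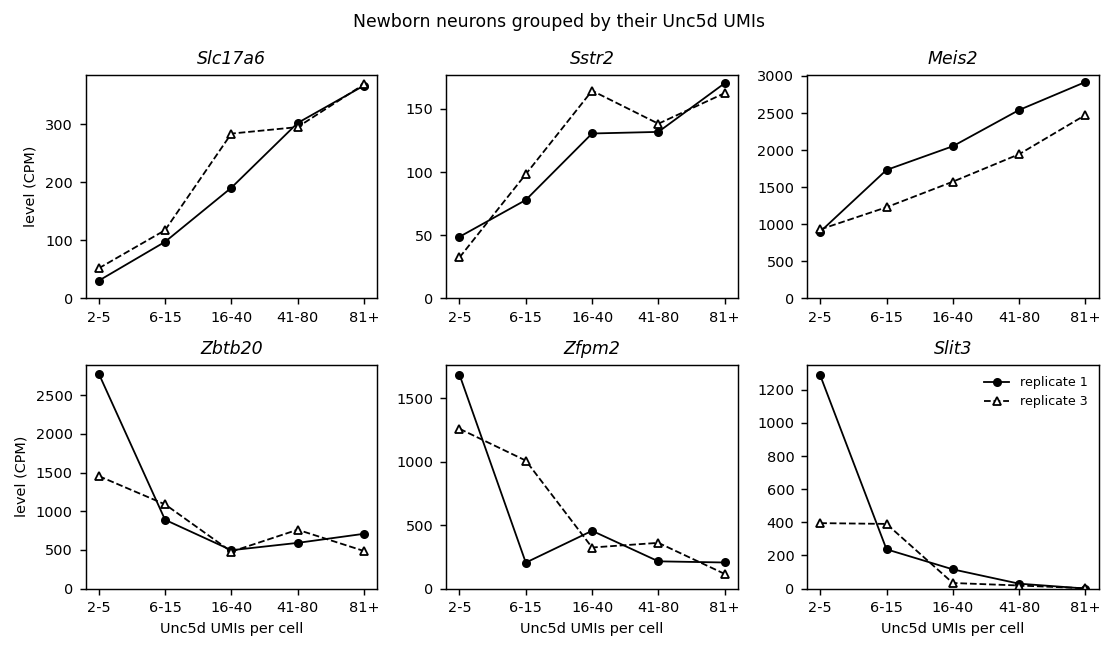
Levels in CPM (vertical axes) of 6 genes in newborn neurons grouped by their *Unc5d* UMIs per cell (horizontal axes), with filled circles and full lines for replicate 1 and open triangles and broken lines for replicate 3. *Slc17a6* and *Meis2* stood lowest in the cells with 2 to 5 *Unc5d* UMIs in both replicates, and *Zbtb20*, *Zfpm2* and *Slit3* stood highest there.

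Against IPCs, many of the listed proneural, stem cell and cycle genes were lower in the members, and many of those of neuronal identity, migration and axon growth were higher. Of 13967 genes tested, 1445 were higher (10.3% of those tested) and 1241 lower (8.89%) in the members at an adjusted p under 0.05, by the quasi-likelihood F test of edgeR, adjusted by Benjamini-Hochberg, and all 2686 had the same sign in both replicates. Replicate numbers pair the sums, since each number is 1 library, and with a replicate block 2145 genes were higher and 1965 lower. With scaling by library size alone 1164 were higher and 1559 lower, so that the share of higher genes among those called moved from 53.8% to 42.7%.

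Of 16 neurogenic transition genes, which drive or mark the step from progenitor to neuron, 11 were lower, 0 were higher and 5 did not pass, with a median log2 fold change of -1.24 against -0.01 over all genes tested. *Neurog2*, the proneural factor of cortical progenitors, stood at 18.3 and 24.9 CPM in the members and 448 and 361 CPM in the IPCs (log2 fold change -4.13 ± 0.28 (SE), adjusted p = 0.000582). The replicates did not overlap between the groups. *Neurod4* and *Neurog1*, bHLH factors like *Neurod1*, fell furthest. *Neurod4* had 2 UMIs in all members and 475 in the IPCs, a ratio of 111 in favour of the IPCs with an exact 95% counting interval of 30.6 to 921. *Neurog1* had 2 UMIs against 432, a ratio of 101 with an interval of 27.8 to 838. *Gadd45g*, a growth arrest gene, stood at 30.4 and 46.7 CPM against 366 and 529.5 CPM (-3.45 ± 0.39, adjusted p = 0.00241), and *Btg2*, an antiproliferative gene of neurogenic divisions, at 22 and 30.9 CPM against 141 and 142 CPM (-2.33 ± 0.21, adjusted p = 0.00138). *Hes6*, a Hes family member that favours differentiation, was lower too (-1.87 ± 0.18, adjusted p = 0.00152).

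*Insm1*, *Dll3*, *Nhlh1*, *Nhlh2* and *Sstr2* were the 5 genes of the list that did not pass. With the replicate block *Dll3* passed as lower (-0.55, adjusted p = 0.0365) and *Nhlh2* as higher (0.40, adjusted p = 0.0446). *Sstr2* stood at 128 and 133 CPM in the members and 128 and 143 CPM in the IPCs (0.03 ± 0.11, adjusted p = 0.875), and at 25.7 and 30.4 CPM in the later neurons. *Mfng*, a glycosyltransferase that modifies Notch, was among the 11 lower genes and stood at 45.7 and 60 CPM in the members, at 140.0 and 157 CPM in the IPCs (-1.40 ± 0.29, adjusted p = 0.018) and at 5.79 and 12.1 CPM in the later neurons (2.52 ± 0.31, adjusted p = 0.00412). *Slc17a6* had the pattern of *Sstr2*, with 225 and 263 CPM in the IPCs (0.12 ± 0.11, adjusted p = 0.48) and 48.8 and 53.8 CPM in the later neurons.

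Without a replicate block, radial glia genes and cycle genes were lower in the members or did not pass. Of 15 radial glia genes 7 were lower, 0 higher and 8 not past the threshold, with a median of -1.37. With the block 10 were lower and 1 higher. *Sox2*, a stem cell factor, stood at 4.94 and 8.16 CPM against 68 and 54.7 CPM in the IPCs (-3.10 ± 0.28, adjusted p = 0.00134), and *Pax6*, the paired homeobox factor of radial glia, at 18 and 24.3 CPM against 109 and 100.5 CPM (-2.21 ± 0.25, adjusted p = 0.00234). With the block 11 of 16 genes of cycle progression and exit were lower and 1 higher. Without it 8 were lower and 0 higher. The lower genes included *Ccnd1* (-2.23 ± 0.17, adjusted p = 0.000794) and *Ccnd2* (-1.60 ± 0.18, adjusted p = 0.00235), the G1 cyclins, *Cdk6*, their kinase (-1.75 ± 0.34, adjusted p = 0.0147), and 5 genes of the MCM helicase that licenses replication, among them *Mcm2* (-1.84 ± 0.25, adjusted p = 0.00414) and *Mcm6* (-1.45 ± 0.14, adjusted p = 0.00141). The mitotic genes *Top2a*, *Mki67* and *Cenpf* were part of the rule and are not a finding.

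Transcription factors of projection neurons rose in part. Of 27 listed, 12 were higher, 2 lower and 13 not past the threshold, with a median of 0.51. *Bhlhe22*, a bHLH repressor, stood at 128 and 108 CPM against 27.1 and 26.5 CPM in the IPCs (2.21 ± 0.22, adjusted p = 0.00158), and *Neurod2*, a bHLH activator of neurons, at 502 and 437 CPM against 216 and 199 CPM (1.26 ± 0.12, adjusted p = 0.00137). *Bcl11b*, also called Ctip2, a factor of neurons that project below the cortex, stood at 376 and 493 CPM against 147 and 170.4 CPM (1.53 ± 0.16, adjusted p = 0.00207). In each of these 3 genes both replicates of the members stood above both of the IPCs, which passing the test largely requires. *Lmo4* (1.80 ± 0.12, adjusted p = 0.000582) and *Id2* (1.06 ± 0.13, adjusted p = 0.00302), cofactors without DNA binding of their own, *Cux2*, a homeobox factor of upper layers (1.26 ± 0.23, adjusted p = 0.013), *Zbtb18*, a repressor needed for migration (0.86 ± 0.16, adjusted p = 0.0121), and *Tbr1*, a T-box factor of deep layers (0.75 ± 0.12, adjusted p = 0.00813), were higher as well.

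Of 24 genes of radial migration, 12 were higher, 4 lower and 8 not past the threshold, with a median of 0.61. The higher genes included the microtubule binders *Dcx* (0.64 ± 0.11, adjusted p = 0.0102) and *Dclk1* (1.41 ± 0.14, adjusted p = 0.00173). Also higher were the *Cdk5* activator *Cdk5r1* (1.23 ± 0.10, adjusted p = 0.00112) and the tubulins *Tuba1a* (1.29 ± 0.16, adjusted p = 0.00311) and *Tubb2b* (1.09 ± 0.12, adjusted p = 0.00226). *Pafah1b1* (0.19 ± 0.10, adjusted p = 0.214) and *Ndel1* (0.22 ± 0.09, adjusted p = 0.153) did not pass. Of the 5 semaphorin and receptor genes on this list 4 were higher. *Sema3c* stood at 271 and 223 CPM against 77.9 and 70.9 CPM in the IPCs (1.81 ± 0.12, adjusted p = 0.000582). *Nrp1*, a co-receptor of class 3 semaphorins, stood at 1018 and 962 CPM against 259.6 and 433 CPM (1.59 ± 0.23, adjusted p = 0.00528), and *Plxna4*, a receptor subunit that signals with neuropilins, at 2220.0 and 1794 CPM against 628 and 550.3 CPM (1.85 ± 0.17, adjusted p = 0.00144). *Plxna2*, a receptor subunit of the same family, was higher too (0.62 ± 0.12, adjusted p = 0.014), and *Plxnd1*, another one, did not pass, at 2.47 and 2.2 CPM against 1.36 and 1.91 CPM (0.52 ± 0.44, adjusted p = 0.457). *Mdga1*, a GPI-anchored adhesion protein (-1.52 ± 0.14, adjusted p = 0.0013), and *Lzts1*, a gene of cells leaving the ventricular surface (-0.67 ± 0.09, adjusted p = 0.00366), were among the 4 lower genes. *Rnd2*, a small GTPase that *Neurog2* is known to induce, differed between the replicates of the members, at 204 and 340.0 CPM, against 162 and 186 CPM in the IPCs. It did not pass (0.73 ± 0.37, adjusted p = 0.223), and passed with the replicate block at an adjusted p of 0.0212.

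Genes of axons and synapses were the lists with the largest share of higher members. Of 15 axon and dendrite cytoskeleton genes 14 were higher and 0 lower, with a median of 1.12, and *Nefl* was the 1 that did not pass. *Stmn2*, a tubulin regulator of growth cones, stood at 544 and 626 CPM against 200.3 and 166 CPM (1.76 ± 0.13, adjusted p = 0.000751), and *Gap43*, a growth cone protein, at 244 and 248 CPM against 108 and 77.3 CPM (1.49 ± 0.15, adjusted p = 0.00184). Of 13 genes of glutamate transmission and excitability 8 were higher and 0 lower, among them the AMPA receptor subunit *Gria2* (1.66 ± 0.24, adjusted p = 0.00504) and the SNARE protein gene *Snap25* (1.28 ± 0.10, adjusted p = 0.000798). Of 22 guidance and adhesion genes 11 were higher and 2 lower. *Cntn2*, the axonal adhesion protein TAG-1, stood at 215 and 194 CPM against 47.3 and 44.5 CPM (2.24 ± 0.10, adjusted p = 0.000313), and *Robo1*, a Slit receptor, at 659 and 625 CPM against 215 and 243 CPM (1.57 ± 0.12, adjusted p = 0.000862). *Flrt2*, a membrane protein that *Unc5d* binds, was also higher (1.67 ± 0.09, adjusted p = 0.000512), and *Slit1*, a ligand of Robo receptors, was lower (-1.72 ± 0.17, adjusted p = 0.00171).

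The largest differences from IPCs among genes of at least 20 CPM in the higher group were, upwards, *Tafa1*, a secreted chemokine-like protein (6.57 ± 1.02, adjusted p = 0.00669), the long noncoding RNA *Gm32647* (3.94 ± 0.92, adjusted p = 0.0284), *Slit3* (3.17 ± 0.38, adjusted p = 0.00296), the nicotinic receptor subunit *Chrna7* (2.89 ± 0.13, adjusted p = 0.000313) and the ganglioside synthase *St8sia1* (2.66 ± 0.18, adjusted p = 0.000587). Some of these differed much between the replicates. *Gm32647* stood at 207 and 48.5 CPM in the members, and *Slit3* at 206 and 115 CPM against 12 and 24.6 CPM in the IPCs, with a log2 fold change of 4.18 in replicate 1 and 2.29 in replicate 3. With the members of at least 6 *Unc5d* UMIs alone, *Slit3* was at 1.98 ± 0.33, adjusted p = 0.00896, *Tafa1* at 5.60 ± 1.49, adjusted p = 0.0462 and *Gm32647* at 3.14 ± 0.77, adjusted p = 0.0345. *Chrna7* was even between replicates, at 153 and 153 CPM against 19.1 and 24.2 CPM. Downwards the largest were *Neurod4* and *Neurog1*, given above, *Smoc1*, a matrix protein that binds calcium (-5.15 ± 0.23, adjusted p = 0.000313), the factor *Ebf2* (-4.79 ± 0.59, adjusted p = 0.00305) and the kinesin gene *Kif26b* (-4.31 ± 0.53, adjusted p = 0.00305).

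**Figure D2:**
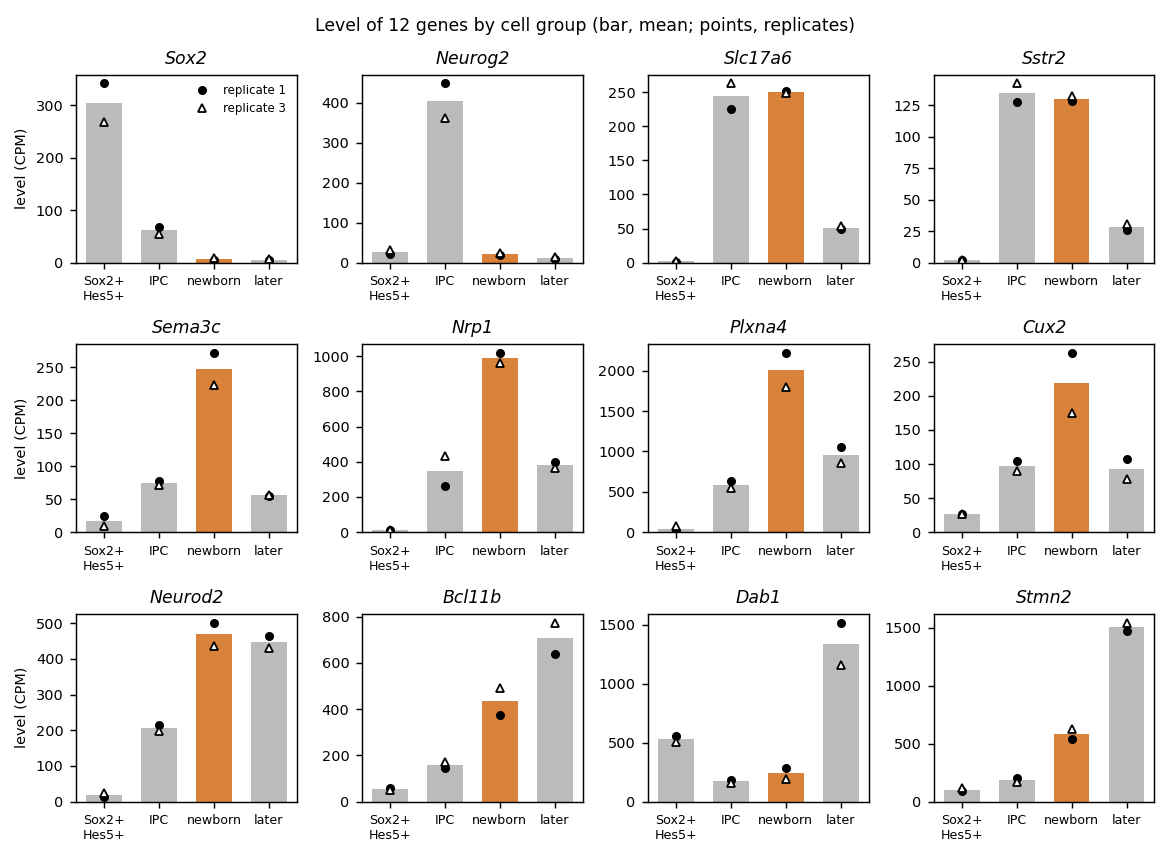
Levels of 12 genes in CPM (vertical axes, from 0) in cells with *Sox2* and *Hes5* UMIs (a rule that used *Sox2*), intermediate progenitors (IPC), newborn neurons (orange) and later neurons. Bars are means of 2 replicates, filled circles replicate 1 and open triangles replicate 3. *Sema3c*, *Nrp1*, *Plxna4* and *Cux2* stood highest in the newborn neurons in both replicates, *Slc17a6* and *Sstr2* were near level between IPC and newborn neurons, and *Bcl11b*, *Dab1* and *Stmn2* stood highest in the later neurons.

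Against later neurons, 6 of 16 neurogenic transition genes and 5 of 13 pallial region genes were higher in the members, while 11 of 27 projection neuron transcription factors, 9 of 15 axon and dendrite cytoskeleton genes and 7 of 13 genes of glutamate transmission and excitability were lower. Of 13967 genes tested 758 were higher (5.43%) and 995 lower (7.12%). All 1753 had the same sign in both replicates, which again follows largely from passing. With the replicate block 1490 were higher and 1769 lower. The sums of the members are the same as in the comparison with IPCs, so the comparisons are not independent.

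Of the 16 neurogenic transition genes 6 were higher in the members than in later neurons and 0 lower. With the replicate block 11 were higher and 0 lower. *Sstr2* stood at 128 and 133 CPM against 25.7 and 30.4 CPM (2.19 ± 0.11, adjusted p = 0.000467). *Nhlh2*, a bHLH factor of young neurons, stood at 26.4 and 34.6 CPM against 5.41 and 9.11 CPM (2.03 ± 0.29, adjusted p = 0.00679), and *Elavl4*, an RNA-binding protein of neurons, was higher as well (0.74 ± 0.10, adjusted p = 0.0054). *Slc17a6* stood at 251 and 249.6 CPM against 48.8 and 53.8 CPM (2.26 ± 0.11, adjusted p = 0.000467) and was the 1 of 13 glutamate transmission and excitability genes that was higher, while 7 were lower. With the replicate block 5 of 16 cycle genes were higher and 1 lower. Without it 4 were higher and 0 lower. Among the higher were *Cdk6* at 48.2 and 31.1 CPM against 6.5 and 7.54 CPM (2.44 ± 0.37, adjusted p = 0.00829) and the cycle inhibitor *Cdkn1b* (0.75 ± 0.11, adjusted p = 0.00691). *Ccnd2* was higher (0.90 ± 0.18, adjusted p = 0.0218), and did not pass in members with no *Eomes* UMI (adjusted p = 0.065).

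With the replicate block 7 of 27 projection neuron transcription factors were higher and 11 lower in the members than in later neurons. Without it 3 were higher and 11 lower. *Lhx2*, a LIM factor of cortical identity (1.56 ± 0.10, adjusted p = 0.000722), *Cux2* (1.21 ± 0.23, adjusted p = 0.0193) and *Lmo4* (0.66 ± 0.12, adjusted p = 0.0147) were higher. Lower were *Ldb2*, a cofactor of LIM proteins, at 70.1 and 35.5 CPM against 615 and 466 CPM (-3.39 ± 0.35, adjusted p = 0.00219), and *Mef2c*, a MADS factor of maturing neurons, at 84.2 and 69.5 CPM against 581 and 333 CPM (-2.60 ± 0.28, adjusted p = 0.00252). The deep-layer factors *Sox5* (-1.37 ± 0.12, adjusted p = 0.00136), *Fezf2* (-1.33 ± 0.11, adjusted p = 0.00127), *Tbr1* (-0.77 ± 0.12, adjusted p = 0.00919) and *Tle4* (-0.94 ± 0.15, adjusted p = 0.011) were lower too. *Zfpm2* (-0.24 ± 0.23, adjusted p = 0.543) and *Foxp2*, a forkhead factor of deep layers (0.39 ± 0.22, adjusted p = 0.31), did not pass. *Bcl11b* stood at 376 and 493 CPM against 639 and 774 CPM (-0.72 ± 0.16, adjusted p = 0.0305), and did not pass when the IPCs in the same fit were cut at 5 *Eomes* UMIs (adjusted p = 0.0753). *Rorb*, a nuclear receptor of layer IV (-1.84 ± 0.45, adjusted p = 0.0422), did not pass in members with at least 5 *Neurod1* UMIs (adjusted p = 0.0521). *Neurod2* did not differ past the threshold, at 502 and 437 CPM against 464 and 431 CPM (0.04 ± 0.11, adjusted p = 0.85), and 1 replicate of the members lay between those of the later neurons.

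Reelin is the secreted signal that guides neurons as they enter the cortical plate, and *Dab1* is the adaptor inside the cell that its receptors *Vldlr* and *Lrp8* need. *Dab1* stood at 286 and 196 CPM in the members, 186 and 162 CPM in the IPCs and 1519 and 1157 CPM in the later neurons. The members were lower than later neurons (-2.50 ± 0.23, adjusted p = 0.00157). Against IPCs *Dab1* did not pass (0.55 ± 0.22, adjusted p = 0.128), and passed at an adjusted p of 0.00331 with the replicate block and at 0.0344 after thinning. It also passed with IPCs cut at 5 *Eomes* UMIs (0.82, adjusted p = 0.0402) and without the filter on low counts (0.58, adjusted p = 0.00157). Without predicted doublets it was at 1.51 (adjusted p = 0.0268). *Vldlr* was lower than in later neurons, at 14.3 and 11.7 CPM against 40.6 and 35.9 CPM (-1.58 ± 0.19, adjusted p = 0.00371), whereas *Lrp8*, also called ApoER2, was higher, at 247 and 176 CPM against 120.1 and 109.9 CPM (0.85 ± 0.18, adjusted p = 0.0264). Against later neurons 1 of the 7 listed genes of this pathway was thus higher, 2 were lower and 4 did not pass. Their median was -0.04 against -0.01 over all genes tested, and with the replicate block 3 were higher and 2 lower. Against IPCs *Vldlr* (0.83 ± 0.22, adjusted p = 0.0401) and *Fyn* (0.32 ± 0.09, adjusted p = 0.0448) were higher and 0 of the 7 lower. With the replicate block 3 were higher and 1 lower than in the IPCs.

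Of the 24 radial migration genes 8 were higher and 3 lower in the members than in later neurons. With the replicate block 10 were higher and 8 lower. *Sema3c* stood at 271 and 223 CPM against 54.7 and 56.4 CPM (2.12 ± 0.12, adjusted p = 0.000608), and *Nrp1* at 1018 and 962 CPM against 397 and 367 CPM (1.35 ± 0.23, adjusted p = 0.0134). *Plxna4* (1.04 ± 0.17, adjusted p = 0.0115), *Plxna2* (0.53 ± 0.12, adjusted p = 0.0313) and *Prex1*, an activator of Rac (0.97 ± 0.17, adjusted p = 0.015), were higher, and *Plxna2* did not pass in members with at least 5 *Neurod1* UMIs (adjusted p = 0.0576). *Rnd3*, a small GTPase of bipolar migration, stood at 99.5 and 130.1 CPM against 35.8 and 63.5 CPM (1.19 ± 0.26, adjusted p = 0.0292), and *Lzts1* was higher too (0.61 ± 0.09, adjusted p = 0.00693). *Plxnd1* was lower, at 2.47 and 2.2 CPM against 6.83 and 11.8 CPM (-1.95 ± 0.37, adjusted p = 0.0184), and did not pass in members with at least 5 *Neurod1* UMIs (-1.27, adjusted p = 0.111). *Mdga1* was lower than in later neurons as it was than in IPCs, at 51.9 and 41 CPM against 86.3 and 103 CPM (-1.05 ± 0.13, adjusted p = 0.00486).

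Guidance genes split in both directions, with 7 of 22 higher and 5 lower. Higher were the class 3 semaphorin co-receptor *Nrp2* (1.49 ± 0.13, adjusted p = 0.0015), the ephrin receptors *Epha4*, at 459.6 and 604 CPM against 154 and 243 CPM (1.40 ± 0.22, adjusted p = 0.00994), and *Epha5* (0.66 ± 0.12, adjusted p = 0.0178), and the Slit receptor *Robo2* (0.79 ± 0.17, adjusted p = 0.028). *Epha5* and *Robo2* did not pass in members with at least 5 *Neurod1* UMIs (adjusted p = 0.0546 and 0.0675). *Robo1* was lower, at 659 and 625 CPM against 1354 and 1241 CPM (-1.04 ± 0.12, adjusted p = 0.00333), as were *Slit1* (-2.61 ± 0.17, adjusted p = 0.000722), *Flrt2* (-1.30 ± 0.09, adjusted p = 0.000722) and *Cntn2* (-0.63 ± 0.09, adjusted p = 0.00805). Of the 15 cytoskeleton genes 9 were lower and 0 higher, with a median of -0.79 against -0.01 over all genes tested, among them *Stmn2* at 544 and 626 CPM against 1472 and 1544 CPM (-1.39 ± 0.13, adjusted p = 0.00168), the tau gene *Mapt* (-1.63 ± 0.22, adjusted p = 0.00616) and the neurofilament gene *Nefl* (-2.93 ± 0.52, adjusted p = 0.0148). The NMDA receptor subunit *Grin2b* (-2.17 ± 0.38, adjusted p = 0.015) and the synaptotagmin gene *Syt1* (-2.12 ± 0.33, adjusted p = 0.00975) were also lower, and *Syt1* did not pass without predicted doublets (adjusted p = 0.0608).

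Of 13 genes of pallial regions 5 were higher and 1 lower, with a median of 1.27 against -0.01 over all genes tested, and 11 were higher with the replicate block. *Zbtb20* stood at 896 and 758 CPM in the members and 188 and 188 CPM in later neurons (2.11 ± 0.15, adjusted p = 0.000912), and at 1.78 ± 0.14, adjusted p = 0.000668 with the members of at least 6 *Unc5d* UMIs alone. *Emx2*, a homeobox factor of medial and caudal cortex (1.73 ± 0.24, adjusted p = 0.00645), *Nr2f1*, a nuclear receptor of caudal cortex (1.06 ± 0.17, adjusted p = 0.0115), and *Meis2* (0.94 ± 0.18, adjusted p = 0.0206) were higher as well. The largest differences upwards were *Gm32647* (3.71 ± 0.85, adjusted p = 0.0344), the integrin *Itga4* (3.03 ± 0.27, adjusted p = 0.0015), the matrix gene *Mfap4* (2.83 ± 0.49, adjusted p = 0.0141), the synaptic vesicle gene *Synpr* (2.54 ± 0.20, adjusted p = 0.00124) and *Mfng*. *Gm32647* was at 2.88 in replicate 3 alone, and at 2.90 ± 0.70, adjusted p = 0.0345 with the members of at least 6 *Unc5d* UMIs. The largest downwards were *Grik3*, a kainate receptor subunit, at 8.15 and 4.19 CPM against 133 and 126 CPM (-4.40 ± 0.28, adjusted p = 0.000722), the lipase gene *Lpl* (-4.02 ± 0.37, adjusted p = 0.00168), *Rgs6*, a regulator of G protein signalling (-3.96 ± 0.20, adjusted p = 0.000467), the centrosome gene *Nin* (-3.93 ± 0.16, adjusted p = 0.000467) and the dynein chain gene *Dync1i1* (-3.79 ± 0.46, adjusted p = 0.00411).

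**Figure D3:**
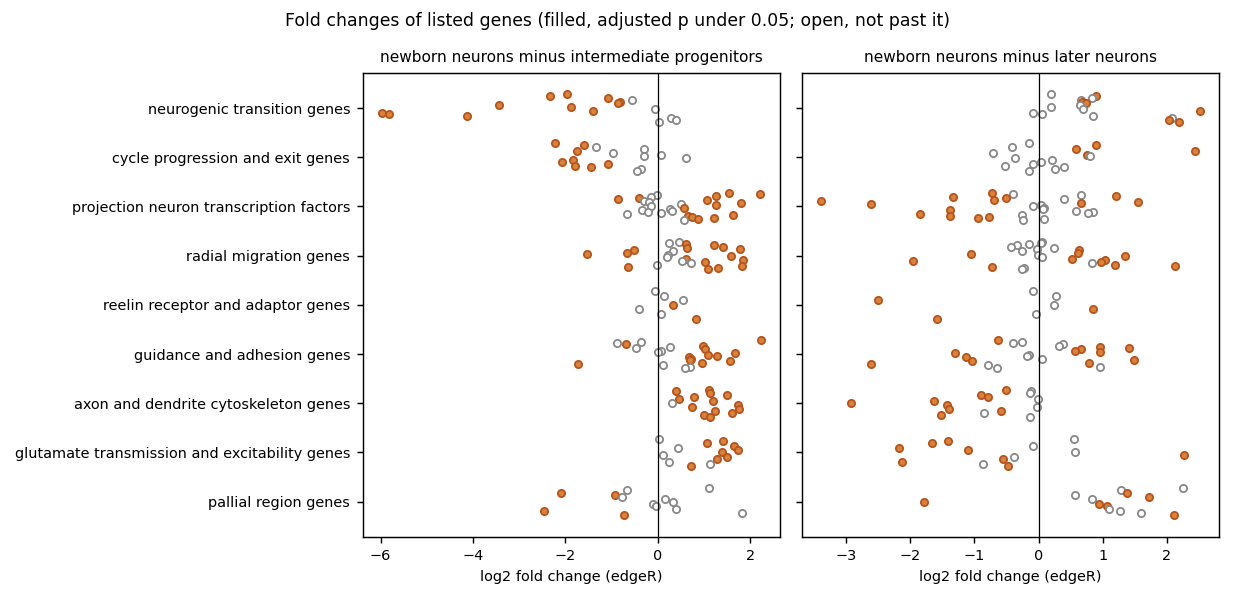
Log2 fold changes (horizontal axes) of the genes of 9 lists in newborn neurons against intermediate progenitors (left) and against later neurons (right), with 1 point per gene, filled where the adjusted p was under 0.05. The cytoskeleton list holds 14 filled points to the right of 0 on the left side and 9 to the left of 0 on the right side, and the neurogenic transition list 11 to the left of 0 and then 6 to the right.

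Genes that were higher in the members than in both neighbouring groups were ranked by the smaller of their fold changes. Among those of at least 20 CPM in the members, the first 6 were *Gm32647*, *Sema3c*, *Chst9*, *Cemip*, *Ly6g6e* and *Luzp2*. *Chst9*, a sulfotransferase, stood at 27.7 and 16.8 CPM in the members, 6.54 and 6.64 CPM in the IPCs (1.80 ± 0.26, adjusted p = 0.00491) and 5.95 and 5.37 CPM in the later neurons (1.91 ± 0.24, adjusted p = 0.00474). *Cemip*, a protein that cleaves hyaluronan, stood at 30.6 and 29.5 CPM, 6.4 and 5.46 CPM (2.41 ± 0.22, adjusted p = 0.00137) and 7.5 and 11.3 CPM (1.64 ± 0.20, adjusted p = 0.00391). *Ly6g6e*, a small protein of the Ly6 family, stood at 22.5 and 22.5 CPM, 8.04 and 7.55 CPM (1.59 ± 0.14, adjusted p = 0.00121) and 7.84 and 7.76 CPM (1.48 ± 0.13, adjusted p = 0.0015). *Luzp2*, a leucine zipper protein, stood at 457 and 335 CPM, 151 and 69.4 CPM (1.94 ± 0.35, adjusted p = 0.011) and 151 and 131 CPM (1.46 ± 0.34, adjusted p = 0.0345), and did not pass against later neurons after thinning (adjusted p = 0.0573). In *Chst9*, *Cemip*, *Ly6g6e*, *Luzp2* and *Sema3c* both replicates of the members stood above both replicates of either neighbour. The genes were chosen as higher in both comparisons, so this follows largely from the choice.

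The promoters of these genes are shown because *Neurod1* and the proneural factors bind E-boxes, and CAGATG and CAGCTG are among the E-box letters of such factors. RefSeq promoters (GRCm38.p6, from 250 bases before to 50 after the start of transcription) were found for 3 of the 6 genes, *Sema3c*, *Cemip* and *Luzp2*. CAGATG on either strand occurred in 17.2% and CAGCTG, which reads alike on both strands, in 16.3% of all 32851 promoters of this length, and either of them in 30.6%. The *Sema3c* promoter (chr5:17574566-17574865, + strand) held CAGATG 200 bases before the start, and the *Luzp2* promoter (chr7:54834995-54835294, + strand) held CAGCTG 27 bases before the start. The *Cemip* promoter (chr7:84086456-84086755, - strand) held neither in this window. The matched letters stand in capitals, and a match is a description of the letters and not a bound site.
Sema3c: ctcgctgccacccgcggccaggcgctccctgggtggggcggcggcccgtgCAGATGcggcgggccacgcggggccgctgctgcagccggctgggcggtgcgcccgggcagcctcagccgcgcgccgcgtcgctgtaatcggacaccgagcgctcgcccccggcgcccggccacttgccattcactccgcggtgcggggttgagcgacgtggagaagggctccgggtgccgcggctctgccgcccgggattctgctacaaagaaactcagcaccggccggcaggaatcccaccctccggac
Luzp2: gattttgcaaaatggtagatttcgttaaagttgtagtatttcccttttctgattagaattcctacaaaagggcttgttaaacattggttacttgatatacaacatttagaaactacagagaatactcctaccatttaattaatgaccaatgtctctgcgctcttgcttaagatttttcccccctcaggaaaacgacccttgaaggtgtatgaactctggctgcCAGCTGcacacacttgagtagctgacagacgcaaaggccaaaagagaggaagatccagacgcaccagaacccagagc

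Further genes differed between the lowest and the highest *Unc5d* bin. *Mef2c* stood at 168 and 214 CPM in the members with 2 to 5 *Unc5d* UMIs and at 19.7 and 21.8 CPM in those with 81 or more, while *Nrp1* stood at 919 and 518 CPM against 1285 and 1492 CPM. *Bcl11b* varied less, at 308 and 365 CPM against 398 and 467 CPM, and was detected in 84.4% and 81.8% of the cells of the lowest bin and in 95.1% and 97.7% of those of the highest. *Neurod6* stood at 599 and 725 CPM against 863 and 989.6 CPM. The median depth was 14707 and 13721 UMIs in the lowest bin and 12975 and 12456 UMIs in the highest, so the cells with the fewest *Unc5d* UMIs were not the shallowest.

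With the members of at least 6 *Unc5d* UMIs alone, 2277 genes were called against IPCs, of which 2197 were also called with all members, in the same direction. Against later neurons 2176 were called, and 1711 of them were called with all members, in the same direction. *Slc17a6* was then at 2.41 ± 0.11, adjusted p = 0.000263 against later neurons and *Sema3c* at 2.10 ± 0.11, adjusted p = 0.000298, and against IPCs they were at 0.27 ± 0.11, adjusted p = 0.144 and 1.79 ± 0.11, adjusted p = 0.000554.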

How the data were processed

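The members, gene lists and comparisons were chosen with earlier results of these data known, and the members were selected on the values of the genes in their rule. The authors dissociated dorsal telencephalon with papain, prepared 10x Genomics 3' v3.1 libraries and deposited UMI counts per gene and cell barcode made with Cell Ranger 7.0.0, for the mouse build mm10 per the submitters' processing notes, with no normalization. The annotation and the intron setting are not given in the sources used here. Cells kept had 1500 to 60000 UMIs, less than 10% of them mitochondrial, and 710 and 1387 barcodes failed this. Predicted doublets, scored against simulated doublets and called at 0.8% per 1000 barcodes, were kept in the main tests (4.76% and 6.06% of the members) and removed in an alternative.

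UMIs were summed per group and replicate and tested with edgeR 4.0.16 (R 4.3.3): TMM scaling, filterByExpr, glmQLFit and glmQLFTest, Benjamini-Hochberg adjustment over all genes tested, a threshold of 0.05 and a prior count of 2. The 3 groups of 2 sums shared 1 fit. The SE was obtained by dividing the absolute log2 fold change by the square root of F. Sums of 1 number come from 1 library, and their deviations from the group means correlated at 0.238 to 0.268 across genes, which are not independent replicates. The main fit had no replicate block, and the fit with it was an alternative, as were DESeq2 1.42.0, other limits, and values from 1 replicate alone. Genes were named from the lists and, outside them, as the 5 largest changes in each direction past the threshold with the same sign in both replicates and a mean of at least 20 CPM in the higher group, plus the 6 highest in both comparisons. The *Unc5d* bins and the genes described over them were chosen after their values were seen. Results of 1 planned comparison and of 2 genes are not reported here. On simulated counts with known changes, 6.15% of genes changed by a log2 fold of 0.5 were recovered in the comparison with IPCs (13635 genes). Of those changed by 1, 70.5% were recovered, and of those changed by 2, 88.2%. A gene not past the threshold may thus differ by a small fold, and some genes with a larger fold were missed too. Recovery was not measured for the comparison with later neurons. Python 3.11.15 with numpy 2.4.6, pandas 2.3.3, scipy 1.17.1, scikit-learn 1.9.0 and matplotlib 3.10.9 were used.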

Additional observations from a re-analysis of the deposited data

How the results depend on the processing

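Of 139 results for single genes in the 2 comparisons, 5 changed sign under at least 1 alternative, and these 5 were not called. *Slc17a6* against IPCs was at -0.11 in members with no *Eomes* UMI and from -0.0044 without replicate 1 to 0.26 without replicate 3. *Sstr2* against IPCs was at -0.040 in members with no *Eomes* UMI, -0.019 with IPCs cut at 5 *Eomes* UMIs, -0.052 with library sizes alone and from -0.035 without replicate 1 to 0.10 without replicate 3. In members with at least 5 *Neurod1* UMIs, *Neurod2* against later neurons was at -0.049 and *Zfpm2* at 0.36. *Foxp2* against later neurons was from -0.068 without replicate 3 to 0.75 without replicate 1. The cause was not tested.

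With the replicate block, which pairs the sums of 1 library, the genes called numbered 4110 against IPCs and 3259 against later neurons, more than 2686 and 1753 without it. It ended no call of a named gene. Without the filter on low counts 2787 genes were called against later neurons. All other alternatives, including members with at least 6 *Unc5d* UMIs, which was chosen after seeing the data, gave counts within 1.5 times the main count. The share of newborn neurons, 5.31% ± 0.65 (SD, n = 2), fell to 2.25% with at least 5 *Neurod1* UMIs and to 4.17% with no *Eomes* UMI, and was 4.85% without replicate 1 and 5.78% without replicate 3. With 2 replicates, leaving 1 out allows values but no test. The number of cells limits what can be said of the lowest *Unc5d* bin, which holds 32 and 33.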
